A study of Mus musculus with 8 samples.

Results

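The 7 genes described here encode enzymes that break down tyrosine and tryptophan. Tat, Hpd, Hgd and Fah act on tyrosine, and Tdo2, Kmo and Haao act on tryptophan. They were chosen by name, as 7 of the 21938 protein-coding genes of the mouse annotation. The rule uses no measured value, but it was set with earlier results of these data known. Chromatin accessibility was taken from bulk ATAC-Seq peak lists, and every listed interval that overlapped a member's gene body with 10 kb on each side was assigned to that member. Regions within 1 kb of a transcription start site of the member (promoter regions) were kept apart from all others (distal regions). Merging the intervals of all lists gave 315767 regions, of which 135 lay at the member genes. These were 13 promoter regions, 117 distal regions and 5 regions at the promoters of neighbouring genes. Start sites were those of the basic transcript set, and a distance is given from the nearest of them, negative for upstream. For Kmo they lie 11615 and 11799 bp inside the annotated gene span.

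Hepatocytes were isolated by collagenase perfusion from C57BL/6 mice (C57BL/6J in the study's methods) aged 10 to 12 weeks, fed a normal diet. Of the 8 libraries, 2 are of undamaged liver (0 h), and 2 each were made 48, 72 and 96 h after partial hepatectomy (PHx), an operation in which lobes are cut away and what is left grows back. The study's text names male mice and separate hepatocyte preparations, and for 0 and 48 h it describes more replicates than the 2 analysed here. The labels do not tie a library to an animal, so the spread between libraries may be partly technical. The list of 72 h replicate 2 lacks the flow-cell tag that the names of the other 7 share, and whether it was sequenced apart is not given in the sources used here. No genetic change was made in any group. The 0 h mice are labelled as undamaged, and no sham-operated group was analysed here, so that the loss of tissue and the operation as such cannot be told apart.

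Aromatic amino acid breakdown is a function of the differentiated hepatocyte. Tyrosine is transaminated by Tat, the rate-limiting and glucocorticoid-inducible enzyme of the route, and the product is oxidised in turn by Hpd and Hgd before Fah cleaves the last intermediate into fumarate and acetoacetate. Tryptophan is opened by Tdo2, the hepatic dioxygenase that commits it to the kynurenine route. Kmo then hydroxylates kynurenine, and Haao acts further down on 3-hydroxyanthranilate, on the way to quinolinate and NAD. Inherited loss of these enzymes causes metabolic disease, such as alkaptonuria for HGD and tyrosinaemia for FAH, HPD and TAT in humans.

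In each list the distinct intervals were ordered by the −log10 p of the peak caller, so that rank 1 is the strongest. A shift is the difference in mean −log2 rank between 2 groups, given with its standard error (SE). A negative shift means a larger rank number, that is, a place lower in the list. Shifts were tested with limma across all coding promoters or all regions found in at least 2 lists, with Benjamini-Hochberg adjustment over all of them. Groups were said not to overlap when both libraries of a time lay above, or both below, both 0 h libraries. With 2 libraries against 2, an exact permutation test cannot give a two-sided p under 0.333, and with 2 against 6 it cannot go under 0.0714. The 3 time points share the same 0 h libraries and so share their chance deviations.

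The lists held 105206 to 154577 distinct intervals. Read counts were not part of the lists, so that the depth behind a value is unknown. The −log10 p at rank 50000 was 15.2 and 9.96 (0 h), 8.05 and 8.62 (48 h), 14.8 and 14.0 (72 h) and 14.5 and 8.29 (96 h), lowest in both 48 h libraries and in 96 h replicate 2. Of 6 hepatocyte marker promoters, the 50000 strongest intervals held 5 and 5 (0 h), 2 and 4 (48 h), 3 and 3 (72 h), and 4 and 4 (96 h). None of the 4 macrophage markers reached that rank in any list, and the 3 lymphoid markers had no interval in any list. Endothelial markers reached it in 0 to 1 of 4 cases (Kdr), stellate cell markers in 1 of 4 (Lrat) and biliary markers in 1 to 2 of 4 (Sox9 and Epcam), while Krt19 had no interval. The part of these differences in the results below was not tested. In bulk nuclei, fewer cells with an open region and less open chromatin per cell cannot be told apart.

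The promoters of Tat and Tdo2, the enzymes that open each route, lay lower in all 6 PHx lists than in both 0 h lists, as did 7.1% of all tested coding promoters. With ranks divided by list length Tdo2 alone did so, and by the deposited fold enrichment Kmo alone did. The promoter of Hpd, the enzyme after Tat, lay below both 0 h libraries at 48 and 96 h, and that of Kmo at 96 h. The promoters of Fah, at the end of the tyrosine route, and of Haao, further down the tryptophan route, ranked between their 0 h values in both 48 h lists. No member promoter passed the adjusted limma test at any time. Tat apart, every member promoter had an interval in all 8 lists, as did 85.2% of tested coding promoters, and 4 (Tdo2, Fah, Kmo and Haao) stayed among the 50000 strongest throughout, as did 70% of all. The members' median shift was −0.56 at 48 h, −0.43 at 72 h and −0.61 at 96 h, against medians over all 15515 tested coding promoters of −0.15, −0.20 and −0.093.

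Tat occupies chr8:109990437-109999803 on the plus strand (GRCm38/mm10). Its promoter had an interval at rank 34125 and 34281 (0 h), at 67967 and 35084 (72 h) and at 43804 and 48909 (96 h), and it had none in either 48 h list. All 6 PHx libraries were therefore below both 0 h libraries, narrowly so for 72 h replicate 2. The interval, chr8:109990190-109990676, had its summit 42 bp downstream of the start site. Fold enrichment over the local background was 4.51 and 3.78 (0 h), 2.97 and 4.34 (72 h) and 3.77 and 3.75 (96 h), so that the groups overlapped on that scale at 72 h and separated by a small margin at 96 h.

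With the absent interval placed just past the end of each 48 h list, the Tat shift at 48 h was −1.91 ± 0.42 (SE, n = 2 libraries each, limma adjusted p = 0.103). Its size is set by the length of the 48 h lists, since no rank was measured there. The shift was −0.51 ± 0.42 at 72 h (limma adjusted p = 0.706) and −0.44 ± 0.42 at 96 h (limma adjusted p = 0.971). At 96 h the Tat promoter ranked above both 48 h libraries, with a shift of 1.47 ± 0.42 from 48 to 96 h (limma adjusted p = 0.465). Of 12030 coding promoters among the 50000 strongest intervals of both 0 h lists, 6 (0.0499%), Tat included, had no interval in either 48 h list, while 0.0166% had none in either 72 h list and 0.0582% none in either 96 h list, where Tat was present.

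The Tat adjusted p at 48 h moved when libraries of another time were left out, and the cause was not tested. When the first 96 h library was left out the limma adjusted p became 0.0298, and 0.0277 when the second was, although the 0 h and 48 h libraries entering these fits were the same. Over the settings that kept all 8 libraries the limma adjusted p lay between 0.0905 and 0.385, and without 0 h replicate 2 it was 0.999.

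The 250 bases before the Tat start site are shown because this is the promoter whose interval was missing from both 48 h lists. Capitals in all sequences mark matches, on either strand, to letter patterns of liver factors, of stress-responsive factors and of CTCF. The patterns were CAAAGTCCA for HNF4, TGTTTAC or TATTTAC for FOXA, and GTTAAT and ATTAA with 1 base between them for HNF1. Further patterns were TTNNGCAA for C/EBP, TGANTCA for AP-1, and GNACA and TGTNC with 3 bases between them for the glucocorticoid receptor. The CTCF pattern was CC and AGGGGGC with 3 bases between them. All sequences are written 5′ to 3′ on the strand of the gene, from GRCm38. The Tat sequence, chr8:109990187-109990436 on the plus strand, held none of the patterns.
Tat promoter: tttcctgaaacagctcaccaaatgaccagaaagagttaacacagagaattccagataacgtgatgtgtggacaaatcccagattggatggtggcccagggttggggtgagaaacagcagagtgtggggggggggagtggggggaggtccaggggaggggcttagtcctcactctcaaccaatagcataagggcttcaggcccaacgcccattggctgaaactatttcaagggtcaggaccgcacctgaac

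**Figure D1:**
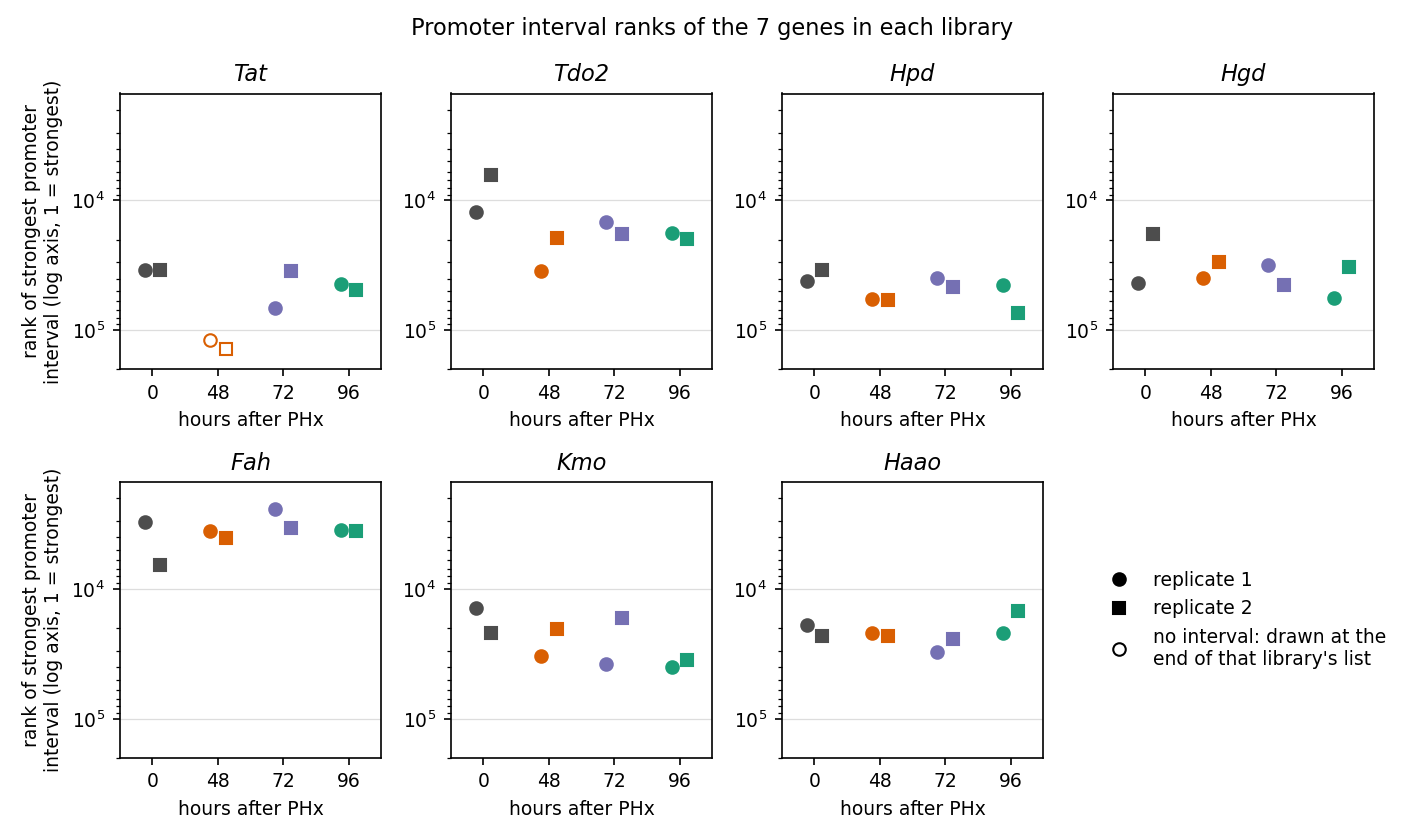
Rank of the promoter interval of each of the 7 genes (log axis, rank 1 at the top is the strongest) against hours after PHx, with 1 mark per library (circle, replicate 1; square, replicate 2; open, no interval, drawn at the end of that list). Tat is absent from both 48 h lists, Tdo2 lies at 12200 and 6320 (0 h) and at 35083 and 19506 (48 h), and Fah stays between 2412 and 6583.

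Hpd, 4-hydroxyphenylpyruvate dioxygenase, lies at chr5:123171807-123182727 on the minus strand, with its start site in an intron of Psmd9. The promoter rank was 41517 and 34187 (0 h), 57270 and 57978 (48 h), 39912 and 46554 (72 h) and 44975 and 73459 (96 h). The 48 h and 96 h libraries lay below both 0 h libraries, while those of 72 h overlapped them. The shift was −0.61 ± 0.43 at 48 h (limma adjusted p = 0.606), −0.19 ± 0.43 at 72 h and −0.61 ± 0.43 at 96 h.

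The Hpd promoter consisted of 2 regions. The region at the start site, chr5:123182454-123183034 with its summit at −51 bp, ranked 41517 and 34187 (0 h) and 83798 and 57978 (48 h). The region at 974 bp, chr5:123181247-123181994, ranked 50924 and 56930 (0 h) and 57270 at 48 h replicate 1, and was absent from 48 h replicate 2. Both therefore lay lower in both 48 h libraries. With ranks divided by list length the region at 974 bp overlapped 0 h at 48 h. The Hpd sequence is shown because it carries, within the separated interval, an AP-1 match and a FOXA match that do not overlap. It covers chr5:123182728-123182977 on the minus strand.
Hpd promoter: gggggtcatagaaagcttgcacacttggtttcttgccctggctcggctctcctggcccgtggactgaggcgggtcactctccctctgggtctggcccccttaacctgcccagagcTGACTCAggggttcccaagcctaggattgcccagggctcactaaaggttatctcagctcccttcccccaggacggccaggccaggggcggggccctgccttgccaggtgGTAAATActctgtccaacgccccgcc

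Hgd, homogentisate 1,2-dioxygenase, lies at chr16:37580153-37632020 on the plus strand. Its promoter ranked 43299 and 18152 (0 h), 39263 and 29753 (48 h), 31435 and 45109 (72 h) and 56606 and 32566 (96 h). The 0 h libraries were themselves far apart, and no time separated from them. The shift was −0.29 ± 0.49 at 48 h (limma adjusted p = 0.868) and relative to the median promoter it was −0.14. Leaving out 0 h replicate 2 turned that relative shift to 0.42, and leaving out 48 h replicate 1 turned it to 0.074, so its sign rested on these libraries. The sequence before its start site, chr16:37579903-37580152 on the plus strand, is shown for its C/EBP match.
Hgd promoter: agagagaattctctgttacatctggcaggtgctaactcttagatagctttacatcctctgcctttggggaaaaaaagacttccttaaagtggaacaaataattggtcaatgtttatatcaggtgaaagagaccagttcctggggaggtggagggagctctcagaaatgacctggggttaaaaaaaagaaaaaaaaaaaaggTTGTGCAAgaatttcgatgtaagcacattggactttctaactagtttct

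Fah, fumarylacetoacetate hydrolase, lies at chr7:84585159-84606722 on the minus strand and had the strongest promoter interval of the 7 genes in every list except 0 h replicate 2, where Tdo2 was ahead. It ranked 3065 and 6583 (0 h), 3555 and 4047 (48 h), 2412 and 3397 (72 h) and 3527 and 3573 (96 h). The 48 h and 96 h libraries lay between the 0 h libraries, and 1 of the 72 h libraries lay above both. The shift was 0.24 ± 0.70 at 48 h (limma adjusted p = 0.921), 0.65 ± 0.70 at 72 h and 0.34 ± 0.70 at 96 h. With an SE of this size a shift of 1 would not have been detectable. Relative to the median promoter the 48 h shift of 0.39 turned to −0.23 when 0 h replicate 2 was left out. Fold enrichment was 8.07 and 6.86 (0 h) and 7.56 and 7.44 (48 h).

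In the tryptophan route, Tdo2 lies at chr3:81957090-81976202 on the minus strand. Its promoter ranked 12200 and 6320 (0 h), 35083 and 19506 (48 h), 14667 and 18062 (72 h) and 17795 and 19924 (96 h). All 6 PHx libraries lay below both 0 h libraries. Among the later lists, the ranks of 72 and 96 h overlapped, and the higher rank number of 96 h just passed the lower of 48 h (19924 against 19506). The shift was −1.57 ± 0.56 at 48 h (limma adjusted p = 0.295), −0.89 ± 0.56 at 72 h (limma adjusted p = 0.624) and −1.10 ± 0.56 at 96 h (limma adjusted p = 0.936). Fold enrichment was 8.03 and 7.72 (0 h), 3.56 and 6.13 (48 h), 7.67 and 6.87 (72 h) and 7.995 and 7.04 (96 h), so that 96 h overlapped 0 h on that scale. The summit lay 491 bp inside the annotated start, in an annotated untranslated exon, and a weaker interval at 1117 bp appeared only in 0 h replicate 1 and 48 h replicate 2.

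Kmo, kynurenine 3-monooxygenase, lies at chr1:175620381-175662116 on the plus strand. Its promoter ranked 13955 and 21942 (0 h), 32668 and 20284 (48 h), 37725 and 16816 (72 h) and 39717 and 35578 (96 h). The replicates were far apart at 48 and 72 h and overlapped 0 h, while both 96 h libraries lay below it. The shift was −1.10 ± 0.51 at 96 h (limma adjusted p = 0.935), and −0.56 ± 0.51 and −0.53 ± 0.51 at 48 and 72 h. Fold enrichment was 8.22 and 7.53 (0 h), 4.62 and 6.10 (48 h), 5.77 and 6.66 (72 h) and 5.83 and 4.98 (96 h).

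Haao, 3-hydroxyanthranilate 3,4-dioxygenase, lies at chr17:83831156-83847963 on the minus strand. Its promoter ranked 19075 and 23010 (0 h), 21974 and 22911 (48 h), 30548 and 24206 (72 h) and 22004 and 14786 (96 h). The 48 h libraries lay between those of 0 h, and only the 72 h libraries lay below both. The shift was −0.10 ± 0.50 at 48 h (limma adjusted p = 0.956), −0.38 ± 0.50 at 72 h and 0.22 ± 0.50 at 96 h. Relative to the median promoter the 48 h shift was 0.052, and it turned to −0.16 when 0 h replicate 2 was left out. A weaker promoter region at 1061 bp ranked 72593 and 24344 (0 h) and was absent from 1 of the lists at 48 h and 1 at 72 h.

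At 48 h the promoters of 3 of the 7 genes (Tat, Tdo2 and Hpd) lay below both 0 h libraries and 0 lay above, while 26.4% of all tested coding promoters lay below and 16.3% above. Without 0 h replicate 2 the count below was 6, and it was 3 or 4 without any 1 of the other libraries. At 72 h 3 lay below (Tat, Tdo2 and Haao) and 0 above, against 28.8% and 16.4% of all, and the count below was 5 without 0 h replicate 1 or 72 h replicate 1 and 4 without 0 h replicate 2 or 72 h replicate 2. At 96 h 4 lay below (Tat, Tdo2, Hpd and Kmo) and 0 above, against 18.2% and 14.2%. At these shares 1 to 2 of any 7 promoters lie below, so the counts exceed the background by few genes. Tat and Tdo2 were the 2 of 7 that lay below 0 h in all 6 PHx libraries, and 0 lay above it in all 6 (4.16% of all). Set against 48 h, the 96 h libraries were below for Kmo and above for Tat (14.4% of all promoters below, 18.1% above).

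Of the 7 promoters, 0 passed the adjusted limma test at 48 h, where 0.0387% of all promoters did, 0 at 72 h (0.0193% of all) and 0 at 96 h (0.0387% of all). At an unadjusted limma p under 0.05 the members counted 2 at 48 h, 0 at 72 h and 1 at 96 h, against 11.5%, 9.22% and 5.25% of all promoters. With all PHx libraries set against 0 h, 0 members passed adjustment (0.058% of all) and 2 did so without it (9.87% of all). Between 48 and 96 h 0 members passed adjustment (0.0129% of all) and 1, Tat, did so without it (7.83% of all). For all PHx libraries against 0 h, the exact two-sided permutation p was 0.0714 for Tat and for Tdo2, the smallest that 2 libraries against 6 can give, and the shifts were −0.95 ± 0.34 and −1.19 ± 0.45. Relative to the median promoter the Tdo2 shift of −1.05 was −0.64 without 0 h replicate 2 and −0.12 on the scale of quantile-normalised log2 fold enrichment, and the Tat shift of −0.81 was −0.27 with the 50000 strongest intervals alone. By the same exact permutation test p was 0.143 for Hpd, 0.214 for Kmo, 0.357 for Hgd, 0.429 for Fah and 0.714 for Haao.

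The lists of 72 and 96 h were longer than both of 0 h, so the counts were also made with each rank divided by the length of its list. The 48 h count kept its 3 genes, with 0 above, against 20.7% of all promoters below 0 h and 19.4% above. At 72 h only Tdo2 remained below, with Hpd and Fah above (15.4% of all below, 27% above). At 96 h Tdo2 and Kmo remained below (11.4% of all), and over all times Tdo2 alone did (3.47% of all). The separation of Tat at 72 and 96 h thus rested on unscaled ranks. Division by list length moved the median shift of all promoters to 0.00, 0.15 and 0.14 at the 3 times. It adds the same constant to every feature of a list and cannot move values relative to that median.

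**Figure D2:**
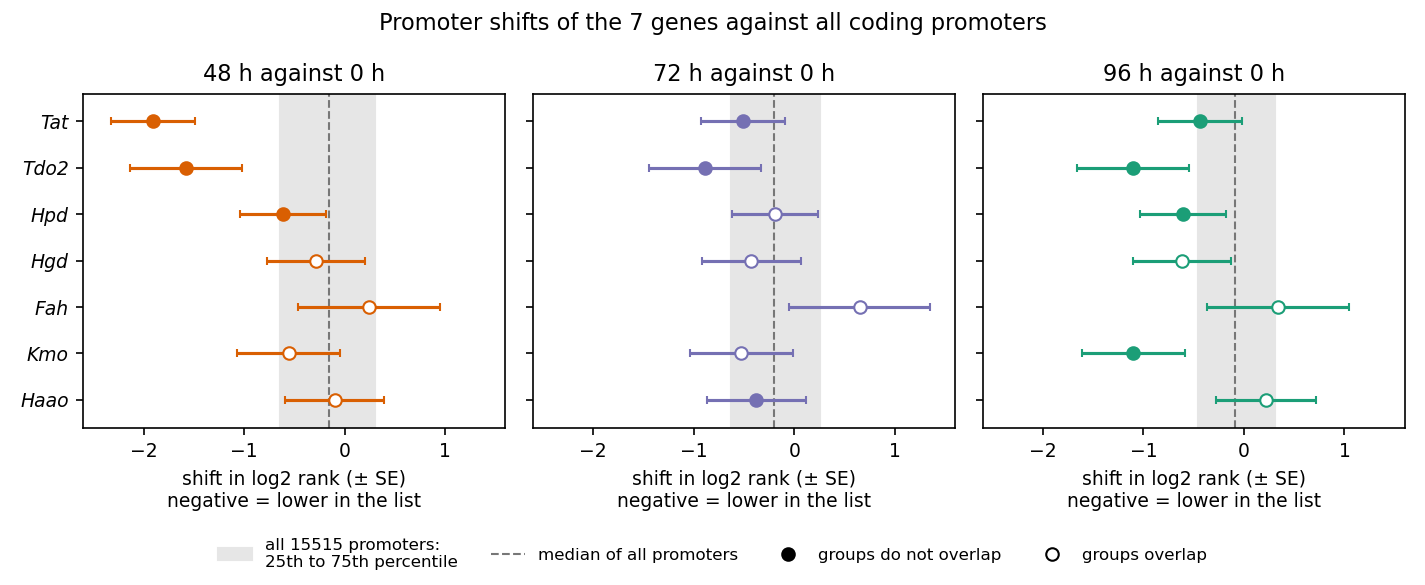
Shift in −log2 rank of each member promoter at 48, 72 and 96 h against 0 h (points with SE bars, filled where the groups do not overlap, n = 2 libraries each), with the median (dashed line) and interquartile range (grey) of all 15515 coding promoters. Tat reaches −1.91 and Tdo2 −1.57 at 48 h, and Fah lies above 0 at all 3 times.

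Around the promoters the 7 genes had 117 distal regions, of which 81 were found in at least 2 lists and were tested. Kmo had 17, Hgd 16, Tdo2 and Fah 12 each, Haao 11, Hpd 7 and Tat 6. Their summits lay in introns in 50 cases, between genes in 15, in untranslated exons in 10 and in coding exons in 6. Of the 81, 24 were present in all 8 lists, as were 33.2% of all tested distal regions. Only 6 ranked among the 50000 strongest in every list, as did 13.7% of all. The members' distal regions numbered 64 and 57 (0 h), 52 and 55 (48 h), 59 and 61 (72 h) and 62 and 45 (96 h).

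Of the 81, 7 were absent from all 0 h and 48 h lists, so that their shift at 48 h is set by list lengths alone. Over the other 74 the median shift at 48 h was −0.12, against −0.0996 for all distal regions listed at 0 or 48 h, and over the 24 in all 8 lists it was 0.12, against −0.020. At 48 h 16 of the 81 (19.8%) lay below both 0 h libraries and 6 (7.41%) above, against 15.5% and 11.9% of all distal regions. At 72 h 12 (14.8%) lay below and 7 (8.64%) above, against 13% and 17.8% of all, and at 96 h 12 (14.8%) below and 6 (7.41%) above, against 12.9% and 12.5% of all. Over all times 4 lay below in every PHx list and 0 above (4.47% and 2.15% of all). These differences from all distal regions were not tested. With ranks divided by list length the counts below became 15, 3 and 7 for the 3 times in turn and those above 7, 17 and 9. On that scale 12%, 5.83% and 7.65% of all distal regions lay below, and 14.1%, 28.1% and 17.6% above. By limma 0 of the 81 passed adjustment at 48 h (0.0327% of all), at 72 h (0.0024% of all) or at 96 h (0% of all), and 3, 8 and 8 had an unadjusted p under 0.05 (7.31%, 10.4% and 6.02% of all). With all PHx libraries set against 0 h, 0 passed adjustment by limma (0.00479% of all) and 9 had an unadjusted p under 0.05 (9.1% of all).

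Counted per list, the 7 genes had 68 and 59 intervals at 0 h away from their own start sites, 57 and 58 (48 h), 61 and 65 (72 h) and 65 and 47 (96 h) (exact two-sided permutation p = 0.357, all PHx libraries against 0 h). Per 100000 listed intervals these were 53.6 and 56.1 (0 h), 48.3 and 41.6 (48 h), 43.5 and 42.1 (72 h) and 44.9 and 36.9 (96 h). Both 0 h libraries lay above all 6 PHx libraries (exact permutation p = 0.0714, the smallest that 2 against 6 can give). Singly, 7.91% of 19194 coding genes showed this pattern on that scale, which is no background rate for a sum over 7 genes. The mean over all coding genes was 3.99 and 4.07 in the 0 h lists and 3.68 to 4.02 after PHx, and these overlapped (exact permutation p = 0.214).

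By gene, both 0 h libraries lay above all 6 PHx libraries on this scale for 3 members, Tdo2, Hgd and Haao, and for Tdo2 the margin was narrow (7.89 against 7.84). On the undivided number of intervals 0 members showed it, as did 0.365% of coding genes. Haao had 7.89 and 8.56 intervals per 100000 at 0 h, 6.78 and 5.74 (48 h), 4.99 and 5.18 (72 h) and 6.91 and 2.35 (96 h). Kmo, with 10.3 and 10.5 (0 h) and 11.02 and 8.61 (48 h), overlapped. The scale divides by list length, which differed between libraries, and its part in the pattern was not tested.

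**Figure D3:**
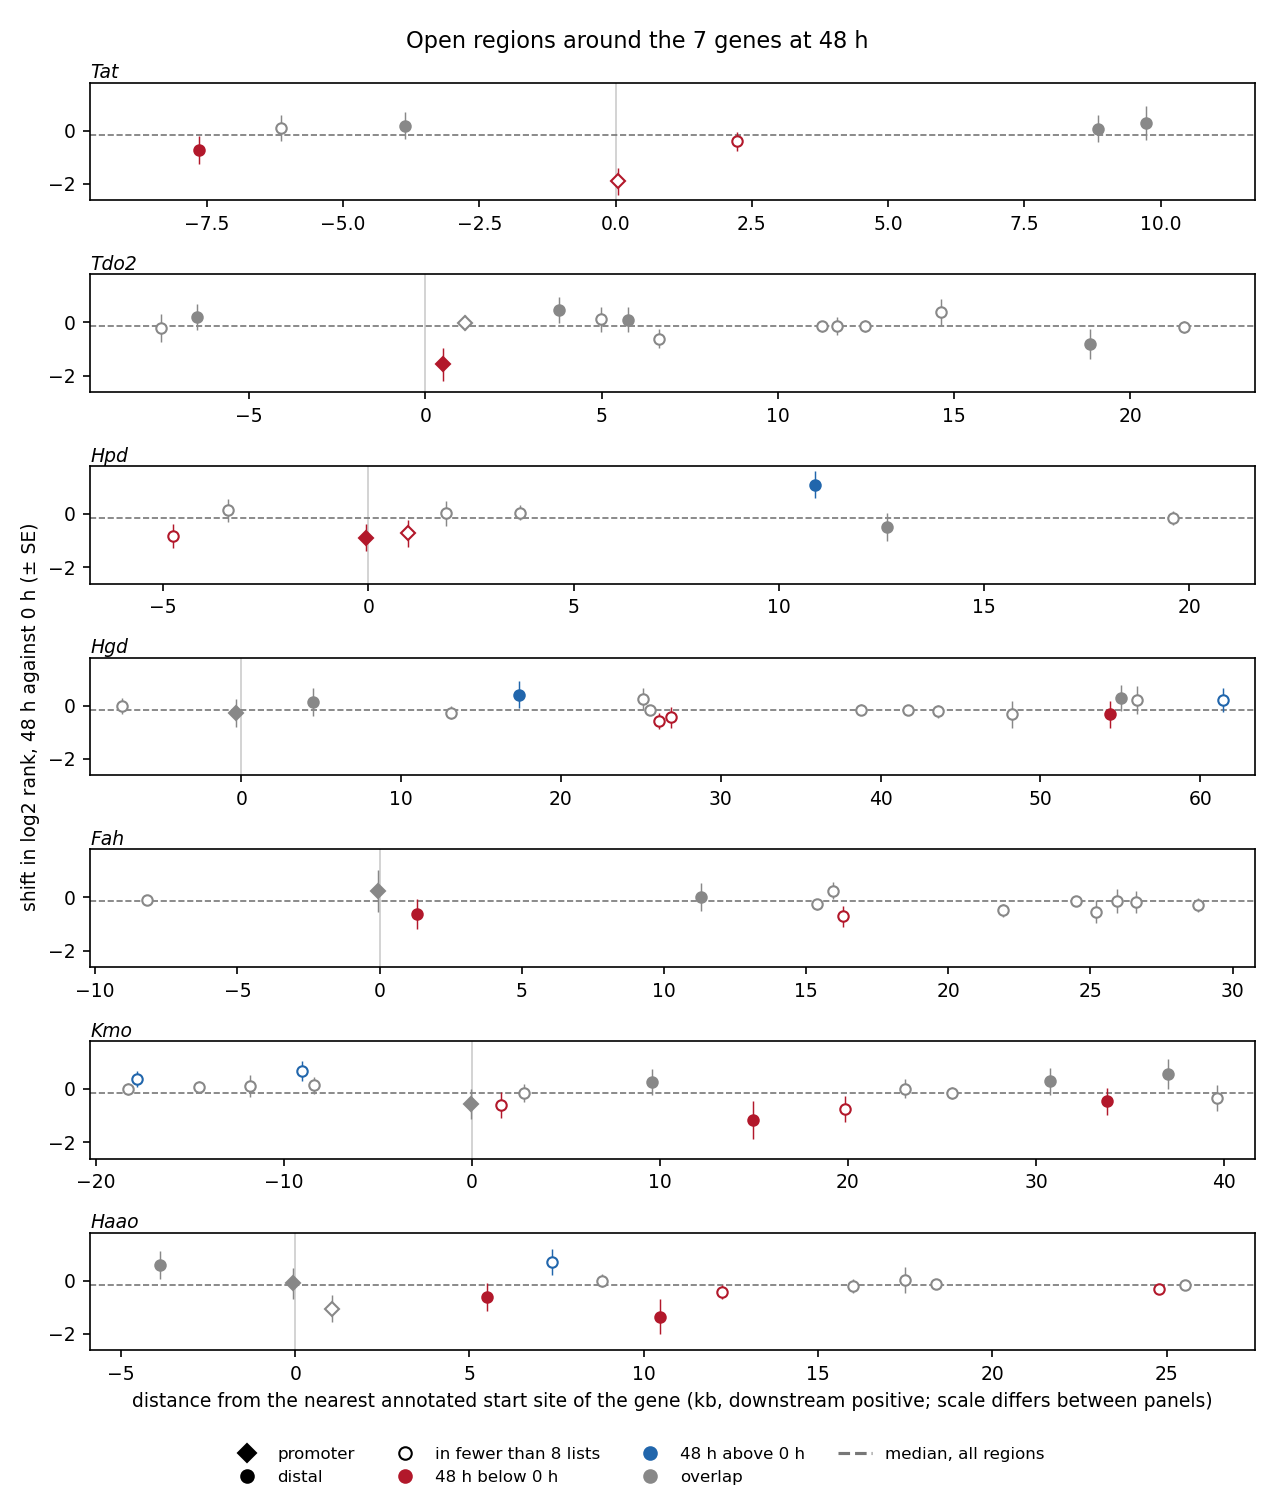
Shift at 48 h against 0 h of every tested region at the 7 genes, by distance of its summit from the nearest start site of the gene in kb (diamonds, promoter regions; circles, distal regions; open, in fewer than 8 lists; red, 48 h below 0 h; blue, above; grey, overlapping; bars, SE; dashed line, median of all regions). The Tat promoter at −1.91 lies below its distal regions, and most distal regions lie within 1 unit of 0.

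Downstream of Tat the strongest region, chr8:109999798-110001327 with its summit at 9727 bp, ranked 26779 and 11186 (0 h), 14888 and 13290 (48 h), 9647 and 16382 (72 h) and 7681 and 21048 (96 h). Both 48 h libraries lay between those of 0 h, with a shift of 0.30 ± 0.64 (limma adjusted p = 0.897), and the region was listed in both 48 h libraries, unlike the promoter. The upstream region at −3873 bp, chr8:109986221-109986716, ranked 75431 and 40120 (0 h) and 43837 and 54248 (48 h), and it too overlapped. The region at 8852 bp in the last, untranslated exon likewise overlapped at 48 h, at 62093 and 38509 against 52027 and 42006. At 48 h 2 weaker regions at Tat lay below both 0 h libraries. The region at −7638 bp, between genes, ranked 49402 and 60516 (0 h) and 97989 and 83995 (48 h), and overlapped 0 h at 72 and 96 h, with a shift at 48 h of −0.73 ± 0.51 (limma adjusted p = 0.786). The intronic region at 2226 bp ranked 80977 and 79054 (0 h), 116159 and 96957 (48 h) and 103463 at 72 h replicate 1, and was absent from the other 3 lists. With ranks divided by list length it overlapped 0 h at 48 h.

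At Hpd 2 distal regions lay on opposite sides of the 0 h libraries at 48 h, and neither passed the test. The region at −4774 bp, chr5:123187325-123187740 in an intron of Psmd9, ranked 70831 and 72605 (0 h), was absent from both 48 h lists, and ranked 76436 and 97139 (72 h) and 82853 and 125644 (96 h). It lay below 0 h in all 6 PHx libraries and had the same pattern of presence as the Tat promoter, with a shift at 48 h of −0.84 ± 0.45 (limma adjusted p = 0.683). With ranks divided by list length this region overlapped 0 h at 72 and 96 h. It is shown for its FOXA match near the summit, as chr5:123187401-123187600 on the minus strand.
Hpd region at −4774 bp: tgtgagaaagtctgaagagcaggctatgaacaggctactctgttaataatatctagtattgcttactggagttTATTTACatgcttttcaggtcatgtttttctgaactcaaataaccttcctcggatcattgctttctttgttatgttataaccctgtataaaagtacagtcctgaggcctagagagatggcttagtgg

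The region in the last exon of Hpd at 10892 bp, chr5:123171648-123172304, ranked 56526 and 56912 (0 h), 36667 and 19340 (48 h), 87109 and 109048 (72 h) and 67027 and 86070 (96 h). It lay above 0 h in both 48 h libraries and below it in the 4 later ones. With ranks divided by list length the 96 h libraries overlapped 0 h. The shift was 1.09 ± 0.51 at 48 h (limma adjusted p = 0.599) and −0.78 ± 0.51 at 72 h (limma adjusted p = 0.589). Relative to the median region the 48 h shift of 1.24 ran from 0.67 without 48 h replicate 2 to 1.82 without 48 h replicate 1. The broad region at 12629 bp in Psmd9 overlapped between 0 and 48 h, with ranks of 64932 and 36980 against 64900 and 73463.

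At Kmo a distal region lay on different sides of 0 h at 48 and 72 h. This region at 14954 bp, chr1:175646416-175647652 with its summit in a coding exon, ranked 11293 and 5597 (0 h), 24662 and 12929 (48 h), 2542 and 4935 (72 h) and 12302 and 5253 (96 h). Both 48 h libraries lay below those of 0 h, both 72 h libraries lay above, and 96 h overlapped 0 h. The shift was −1.17 ± 0.70 at 48 h (limma adjusted p = 0.738) and 1.17 ± 0.70 at 72 h (limma adjusted p = 0.554), so neither exceeded the spread between libraries by the test. Relative to the median region the 48 h shift of −1.02 ran from −1.59 without 48 h replicate 2 to −0.43 without 48 h replicate 1. The sequence around its summit, chr1:175647034-175647233 on the plus strand, is shown for its FOXA match.
Kmo region at 14954 bp: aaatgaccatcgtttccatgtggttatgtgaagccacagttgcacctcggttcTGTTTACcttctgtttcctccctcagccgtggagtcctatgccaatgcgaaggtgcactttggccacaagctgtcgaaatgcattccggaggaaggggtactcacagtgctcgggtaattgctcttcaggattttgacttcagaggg

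Past the Kmo gene, the regions at 33763 and 37039 bp lay in an intron of Opn3. The former ranked 49167 and 66701 (0 h) and 85890 and 72933 (48 h), below both, and overlapped at 72 and 96 h. With ranks divided by list length it overlapped at 48 h too. The latter ranked 43913 and 17299 (0 h) and 7746 and 44619 (48 h), where the replicates were farther apart than the groups. Before the start sites of Kmo, 2 weak regions, at −17783 bp in an intron of Fh1 and at −9007 bp in an intron of both Fh1 and Kmo, were absent at 0 h and present in both 48 h lists, the former at ranks 109788 and 73607 and the latter at 72269 and 71562.

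At Haao the intronic region at 10478 bp, chr17:83835915-83836814, ranked 13335 and 4186 (0 h), 23251 and 15562 (48 h), 10792 and 6734 (72 h) and 17639 and 8801 (96 h). Both 48 h libraries lay below 0 h and the later times overlapped it, with a shift at 48 h of −1.35 ± 0.66 (limma adjusted p = 0.633). Relative to the median region it was −1.20, and it ran from −1.97 without 0 h replicate 1 to −0.50 without 0 h replicate 2. The intronic region at 5510 bp, chr17:83840952-83841734, followed the same order at 48 h, with ranks of 38316 and 32010 (0 h) and 53308 and 54425 (48 h). The Haao promoter did not, as described above. The upstream region at −3875 bp ranked 23308 and 45795 (0 h) and 11664 and 41079 (48 h) and overlapped. The region at 10478 bp is shown for its C/EBP match, as chr17:83836171-83836370 on the minus strand.
Haao region at 10478 bp: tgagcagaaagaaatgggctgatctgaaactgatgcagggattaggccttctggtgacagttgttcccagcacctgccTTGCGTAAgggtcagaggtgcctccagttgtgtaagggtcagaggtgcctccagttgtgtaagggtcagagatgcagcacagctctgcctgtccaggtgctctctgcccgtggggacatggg

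At Hgd, Fah and Tdo2 no distal region passed the test. The intronic Hgd region at 4507 bp, chr16:37584266-37585005, ranked 23829 and 36502 (0 h), 27226 and 26380 (48 h), 45647 and 34048 (72 h) and 55941 and 40996 (96 h), and separated from 0 h only at 96 h. With ranks divided by list length it overlapped 0 h at 96 h too. The Hgd region at 17364 bp lay above 0 h in both 48 h libraries (41891 and 49454 against 67913 and 54087), and the region at 56047 bp overlapped at 48 h and was absent from 96 h replicate 2. A region at 61417 bp, past the end of Hgd, was absent from both 0 h lists and present in both lists at 48 h (101902 and 98443) and at 96 h (139772 and 32380).

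The intronic Fah region at 1315 bp, chr7:84604447-84604894, ranked 24104 and 22674 (0 h), 36207 and 35767 (48 h), 32945 and 21570 (72 h) and 39556 and 14153 (96 h). It lay below 0 h at 48 h, with a shift of −0.62 ± 0.56 (limma adjusted p = 0.847), while the Fah promoter next to it did not. The Fah region at 11309 bp, chr7:84594452-84595467, stayed between 37561 and 60062 in all lists and overlapped at every time. It is shown, as chr7:84594533-84594732 on the minus strand, because it carries 2 separate C/EBP matches.
Fah region at 11309 bp: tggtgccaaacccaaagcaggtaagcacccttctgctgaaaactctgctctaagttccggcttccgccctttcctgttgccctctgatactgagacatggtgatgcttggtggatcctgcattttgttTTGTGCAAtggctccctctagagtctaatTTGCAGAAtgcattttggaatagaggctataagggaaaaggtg

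The region at the 3′ end of Tdo2, chr3:81955694-81958296 with its summit at 18857 bp, ranked 36721 and 16061 (0 h), 36477 and 49975 (48 h), 16309 and 31024 (72 h) and 30619 and 29565 (96 h). It overlapped 0 h at every time, in contrast to the Tdo2 promoter, and its shift at 48 h was −0.81 ± 0.55 (limma adjusted p = 0.779). The Tdo2 intronic region at 3798 bp ranged from 32307 to 128281 between the 48 h libraries alone. The region at −7495 bp, in an intron of Asic5, overlapped at 48 h and was absent from 96 h replicate 2.

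In all, 6 distal regions present in both 0 h lists were absent from both 48 h lists, namely the Hpd region at −4774 bp, the Hgd regions at 26141 and 26916 bp, the Fah region at 16299 bp and the Haao regions at 24780 and 12250 bp. Over all tested distal regions 3.91% did so, against these 6 of 81. All 6 were weak, with 0 h ranks between 60822 and 122891. None was among the 50000 strongest of both 0 h lists, where 0.287% of all distal regions were absent from both 48 h lists. In the reverse direction 3 regions were gained, the Hgd region at 61417 bp and the Kmo regions at −17783 and −9007 bp, against 2.36% of all. The Haao region at 24780 bp was the only one of the 6 that was absent from all 6 PHx lists.

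**Figure D4:**
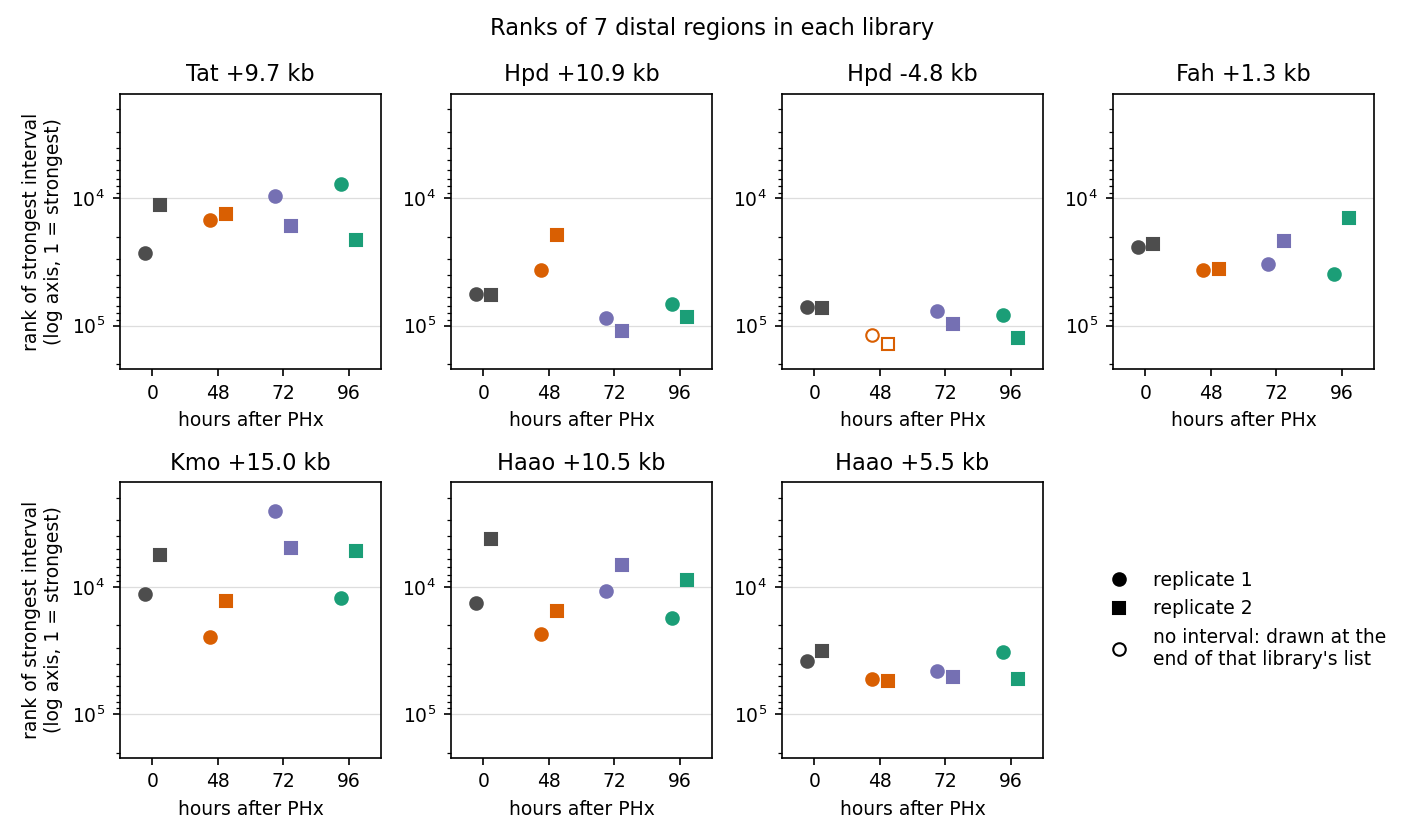
Rank (log axis, rank 1 at the top) against hours after PHx for 7 distal regions at Tat, Hpd, Fah, Kmo and Haao, named by gene and distance from the start site, with 1 mark per library (circle, replicate 1; square, replicate 2; open, no interval, drawn at the end of that list). The Tat region at 9727 bp stays between 7681 and 26779, and the Kmo region at 14954 bp runs from 24662 and 12929 (48 h) to 2542 and 4935 (72 h).

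The letter patterns were counted in 200 bp around the summits of all tested regions. The members' 81 distal windows held a C/EBP match in 10 cases (12.3%, against 12.9% of all 125221 tested distal windows), an AP-1 match in 6 (7.41% against 8.8%), a FOXA match in 3 (3.7% against 8.04%) and a glucocorticoid receptor match in 1 (1.23% against 0.552%). None held HNF4, HNF1 or CTCF letters, which 1.29%, 0.186% and 2.25% of all distal windows did. Of the 10 tested promoter windows, 2 held AP-1 letters and 1 each held HNF4, FOXA, C/EBP and CTCF letters, against 4.65%, 0.638%, 3.84%, 7.06% and 2.22% of the 24622 tested windows near a start site. In the printed sequences no match overlapped another. A match describes letters and says nothing of occupancy.

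Other genes of aromatic amino acid metabolism were read from a list of 23, all of which had a tested promoter. They lay in both directions. At 48 h 5 lay below both 0 h libraries (Pcbd1, Got1, Qprt, Pts and Gchfr) and 7 above (Gstz1, Ido2, Ido1, Got2, Spr, Tph1 and Kyat3), against 26.4% and 16.3% of all promoters. At 72 h 6 lay below (Qdpr, Pcbd1, Ddc, Qprt, Ido2 and Aadat) and 5 above (Gstz1, Got1, Pts, Kyat1 and Tph1), against 28.8% and 16.4% of all, and without 72 h replicate 2 these counts were 12 and 8. At 96 h 5 lay below (Pcbd1, Ddc, Qprt, Ido2 and Spr) and 5 above (Gstz1, Got2, Gch1, Kyat3 and Il4i1), against 18.2% and 14.2% of all. By limma 0 of the 23 passed adjustment at any of the 3 times, and 1, 0 and 0 had an unadjusted p under 0.05 (11.5%, 9.22% and 5.25% of all promoters). The list's median shift relative to all promoters was 0.065 at 48 h, 0.12 at 72 h and −0.21 at 96 h, against −0.41, −0.23 and −0.52 for the 7 members. The difference between the lists was not tested.

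Gstz1, the maleylacetoacetate isomerase that acts between Hgd and Fah, ranked 369 and 438 (0 h), 184 and 170 (48 h), 169 and 206 (72 h) and 291 and 361 (96 h). All 6 PHx libraries lay above 0 h, with a shift at 48 h of 1.18 ± 0.80 (limma adjusted p = 0.591). Pcbd1, which recycles a tetrahydrobiopterin cofactor, ranked 2576 and 1775 (0 h), 3044 and 3941 (48 h), 3495 and 4139 (72 h) and 6342 and 4901 (96 h), below 0 h in all 6 PHx libraries. Qprt, which takes quinolinate towards NAD, did the same, from 26690 and 23224 (0 h) to 52700 and 37733 (48 h), 31754 and 40772 (72 h) and 49931 and 27751 (96 h). With ranks divided by list length Gstz1 and Pcbd1 kept this separation over all times and Qprt did not. Along the tyrosine route, Gstz1 thus lay above 0 h at 48 h between 2 steps, Hgd and Fah, whose promoters overlapped it.

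The alternative tryptophan dioxygenase Ido1 ranked 43964 and 54150 (0 h) and 26316 and 25046 (48 h), above 0 h, where Tdo2 lay below it. The shift of Ido1 at 48 h was 0.93 ± 0.46 (limma adjusted p = 0.443), and the 72 and 96 h libraries overlapped 0 h. Tph1, the first enzyme of peripheral serotonin synthesis from tryptophan, ranked 56764 at 0 h replicate 1, was absent from 0 h replicate 2, and ranked 44729 and 27006 (48 h), a shift of 1.15 ± 0.45 (limma adjusted p = 0.335). The size of that shift is partly set by the length of the 0 h replicate 2 list. Kyat3, a kynurenine aminotransferase, ranked 3178 and 4512 (0 h), 821 and 2419 (48 h) and 2876 and 534 (96 h), above 0 h at both times, with 72 h overlapping. By fold enrichment both 48 h libraries of Kyat3 lay below 0 h (14.2 and 11.8 against 14.8 and 14.3), and 96 h overlapped it.

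**Figure D5:**
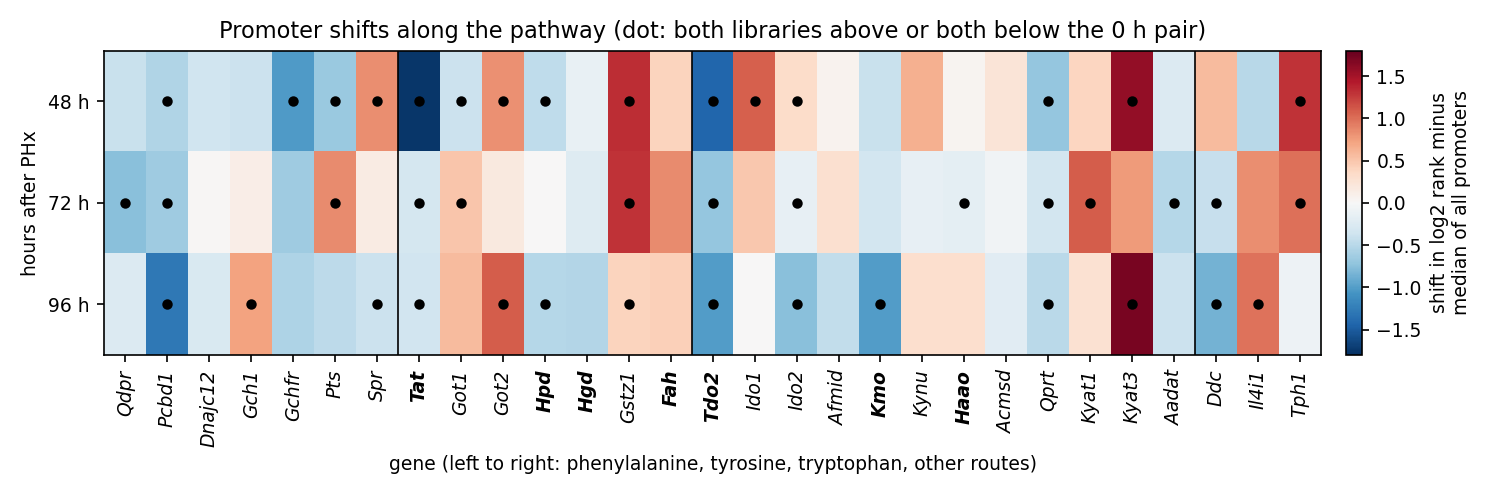
Promoter shift minus the median of all promoters (colour, blue for lower and red for higher in the list) of the 7 members in bold and other pathway genes, ordered by route, at 48, 72 and 96 h after PHx, with a dot where the libraries of that time do not overlap those of 0 h. Tat (−1.76) and Tdo2 (−1.42) are the lowest of the genes drawn at 48 h, and Gstz1 is higher with a dot at all 3 times.

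The promoters most like the members were sought among the 13220 coding promoters with an interval in all 8 lists, by Pearson's r between centred −log2 ranks and the mean profile of the members over the 8 libraries. The 5 highest were Slc27a5 (r = 0.960), 1500011B03Rik (r = 0.954), Adamts6 (r = 0.948), Pnrc1 (r = 0.942) and Cyp2d10 (r = 0.940). Promoters of a list share its length and depth, and the r values were picked as the highest of all, so they are a description. Slc27a5, a liver bile acyl-CoA synthetase, ranked 25199 and 20686 (0 h), 38318 and 37587 (48 h), 31377 and 27228 (72 h) and 35970 and 32106 (96 h). In all 5 both 0 h libraries ranked above all 6 PHx libraries, and the members' mean profile had the same order, from 0.34 and 0.40 (0 h) to −0.42 and −0.21 (48 h), −0.02 and 0.11 (72 h) and −0.14 and −0.07 (96 h). The profile includes Tat, which had no interval in either 48 h list and was placed just past the end of each. The promoters of Hgd, Fah, Kmo and Haao overlapped 0 h at 48 h. How far the profile, and the genes picked by it, follow Tat was not tested.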

How the data were processed

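Peak lists of the 8 ATAC-Seq libraries were used. Per the methods and the labels, the authors trimmed reads, aligned them to mm10 with Bowtie2, removed PCR duplicates and called peaks per library with MACS2 in the ENCODE pipeline. Versions were not given in the sources used here. The deposited lists give a fold enrichment over local background (a ratio), a −log10 p, a −log10 q and a display score, and the deposited score was not used. Replicates were not pooled. The authors' count test could not be run on lists without read counts.

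Lines sharing an interval were collapsed to the highest −log10 p, and intervals were ranked within each list. An absent feature was placed at list length plus 1 for the fit. Shifts in −log2 rank were fitted with limma 3.58.1 (R 4.3.3, trend and robust variance, 4 groups) over 15515 coding promoters and 149843 regions found in at least 2 lists, after tests on simulated data. Sequence was read from GRCm38.p6, and gene models from the basic set of GENCODE M21. Every deposited interval ended within its chromosome in that build. Members, gene lists and tests were chosen with earlier results of these data known. Named regions were each member's promoter regions and its 3 distal regions with the best mean rank, plus those absent from both and present in both libraries of 2 times. Of these, the Fah region at 25933 bp is not described. Promoter regions of Tat, Fah and Kmo found in 1 list only are not described either. Other pathway genes were named where libraries of a time and of 0 h did not overlap. The Tat regions at −7638 and 2226 bp and several regions absent or gained at 48 h were named after their values were seen. Alternatives changed the strength measure, list length, q filter, interval width, feature filter, promoter width, flank, block and libraries. One gene of the pathway list is counted but not reported here by name. The main fit did not pair libraries by replicate number.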

Additional observations from a re-analysis of the deposited data

How the results depend on the processing

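Values are medians of the shift at 48 h relative to all features, or counts of features whose libraries did not overlap those of 0 h. For member promoters the relative median of −0.41 was −0.10 with fold enrichment quantile-normalised over features in all 8 lists (normalised enrichment hereafter, without Tat), −0.24 with the 50000 strongest intervals and −0.22 with features in all 8 lists, which leaves out Tat. Leaving out 1 library gave −0.55 (without 0 h replicate 1) to −0.053 (without 48 h replicate 1). The counts of promoters below 0 h at 72 and 96 h, 3 and 4, became 1 and 2 with the within-list percentile and 1 and 1 with normalised enrichment, and leaving out 1 library gave 3 to 6 at 48 h, 3 to 5 at 72 h and 4 to 5 at 96 h. Over all times the relative median of −0.33 was −0.043 with normalised enrichment (−0.48 to −0.26 without 1 library), and the count of 2 became 1 with the percentile, 0 with normalised enrichment and 1 with features in all 8 lists (2 to 4 without 1 library). The count of members called by limma, 0, became 1 (Tat) without 96 h replicate 1 or 2, and the cause was not tested. Without 1 library the relative shift at 48 h ran from −0.71 to 0.42 for Hgd, −0.23 to 0.9996 for Fah and −0.16 to 0.24 for Haao. It changed sign for Hgd (0.42 without 0 h replicate 2, 0.074 without 48 h replicate 1), Fah (−0.23 without 0 h replicate 2) and Haao (−0.16 without 0 h replicate 2).

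For the other pathway genes the relative median of 0.065 was −0.21 with features in all 8 lists (0.065 to 0.29 without 1 library). With normalised enrichment 1, 1 and 2 lay below 0 h at 48, 72 and 96 h in place of 5, 6 and 5, and 3 in place of 5 lay above at 72 h. Leaving out 1 library gave 5 to 9, 6 to 12 and 5 to 11 below, and 7 to 11, 5 to 8 and 5 to 10 above.

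For distal regions, those absent from all 0 h and 48 h lists included, the relative median of 0.00 was 0.12 with normalised enrichment, −0.019 with the 50000 strongest, 0.023 with q under 0.05 and 0.17 with features in all 8 lists (−0.066 to 0.010 without 1 library). Counts below 0 h at 48, 72 and 96 h (16, 12 and 12) were 4, 3 and 1 with normalised enrichment, 4, 1 and 2 with the 50000 strongest and 7, 5 and 3 with features in all 8 lists, and 3 and 7 at 72 and 96 h with the percentile. Counts above (6, 7 and 6) were 2, 1 and 0 with the 50000 strongest, 2, 1 and 1 with features in all 8 lists, 11 and 10 at 48 and 96 h with 200 bp around summits, 17 with the percentile and 2 with normalised enrichment at 72 h, and 3 at 96 h with a 5 kb flank. Over all times the 4 below were 1 with the percentile, 2 with q under 0.05 and 0 with normalised enrichment, the 50000 strongest or features in all 8 lists, and 1 lay above with the percentile. Leaving out 1 library gave 16 to 30, 12 to 33 and 12 to 28 below, 6 to 21, 7 to 19 and 6 to 21 above, and 4 to 17 below and 0 to 3 above over all times. With 400 bp around summits, C/EBP, AP-1 and FOXA matches in distal windows were 16, 10 and 5 in place of 10, 6 and 3.

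With the replicate block the promoter median stayed at −0.41 and the limma adjusted p of Tat at 48 h was 0.110, and the block changed no member's call. Deviations of same-numbered libraries correlated at −0.0809 to 0.114, highest between 0 and 96 h. Low correlations cannot exclude that same-numbered libraries shared a preparation or batch. Over all coding promoters limma called 6, 3 and 6 at 48, 72 and 96 h, with ranges of 0 to 12, 0 to 7 and 0 to 8 over settings and 1 to 55, 0 to 15 and 0 to 11 without 1 library. Over all regions it called 52, 5 and 0, with ranges of 0 to 445, 0 to 214 and 0 to 178, and 0 to 153, 0 to 21 and 0 to 3.

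With 2 libraries a time, no depth and a −log10 p that grows with depth, ranks do not measure the amount of open chromatin, and small differences were not detectable.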
